A study of Mus musculus with 6 samples.

Results

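The genes described here are Scx, Mkx, Tnmd, Thbs4, Comp and Cilp, 6 genes that mark tendon, ligament and fibrocartilage, out of 36812 named loci that were kept. They were found by gene name in the deposited files. They had been picked because their fragment counts and FPKM (fragments relative to the length of the transcript and the size of the library) differed between Stc1 knockout and wild-type cells and among the wild-type libraries, so those values, and what tests across all genes call among the 6, are given as a description only. RNA came from cultured mouse embryonic fibroblasts, connective tissue cells taken from embryos, on a C57BL/6 background. One genotype was STC1+/+ WT and the other STC1-/- KO, where Stc1 encodes the secreted glycoprotein stanniocalcin-1, with 3 libraries of polyadenylated RNA each. All cells were grown in DMEM with fetal calf serum and antibiotics. The labels do not say how the Stc1 allele was disrupted. Each title carries a code of its own, but its meaning is not given, nor whether each library had its own embryo or culture, so the spread between libraries may be partly technical.

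Scleraxis, the product of Scx, is a basic helix-loop-helix transcription factor that marks tendon and ligament progenitors, and Mohawk, the product of Mkx, is a homeodomain factor needed for full tendon collagen production in mice. Tenomodulin, from Tnmd, is a membrane glycoprotein with a BRICHOS domain made by maturing tendon cells, and its expression in mouse tendon depends on scleraxis. Thrombospondin-4 (Thbs4) and cartilage oligomeric matrix protein (Comp, also a thrombospondin) are secreted matrix proteins of tendon, and Comp and cartilage intermediate layer protein (Cilp) are also matrix proteins of cartilage and fibrocartilage. Embryonic fibroblast cultures are grown from mixed embryonic mesenchyme, which can include precursors of these tissues.

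Promoters of 3 of the 6 genes, Tnmd, Thbs4 and Cilp, were taken from the RefSeq table (GRCm38.p6, the assembly behind mm10). Each is of a gene that was higher in wild-type replicates 2 and 3 than in every other library. Cilp reached only 0.683 CPM (counts scaled to a common effective library size) in wild-type replicate 3. Promoters of the other genes are not shown, so these 3 do not stand for all 6. Each runs from 250 bases before the annotated start to 50 after it, on the strand of the gene. Capitals mark every E-box, the CANNTG motif that basic helix-loop-helix factors bind, which reads the same on both strands; no marked motif overlaps another. The regions are chrX:133850758-133851057 on the plus strand for Tnmd, chr13:92794769-92795068 on the minus strand for Thbs4 and chr9:65264930-65265229 on the plus strand for Cilp.
Tnmd: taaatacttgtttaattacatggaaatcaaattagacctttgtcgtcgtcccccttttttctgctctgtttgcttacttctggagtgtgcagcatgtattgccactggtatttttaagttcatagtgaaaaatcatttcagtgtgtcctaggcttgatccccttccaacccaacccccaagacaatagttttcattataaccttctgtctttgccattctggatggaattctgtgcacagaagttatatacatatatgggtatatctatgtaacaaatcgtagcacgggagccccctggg
Thbs4: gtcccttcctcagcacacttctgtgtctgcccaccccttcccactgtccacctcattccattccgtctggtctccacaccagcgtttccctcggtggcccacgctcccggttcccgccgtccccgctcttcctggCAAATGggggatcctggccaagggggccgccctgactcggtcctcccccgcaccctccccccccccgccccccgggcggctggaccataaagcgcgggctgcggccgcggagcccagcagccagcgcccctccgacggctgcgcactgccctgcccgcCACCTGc
Cilp: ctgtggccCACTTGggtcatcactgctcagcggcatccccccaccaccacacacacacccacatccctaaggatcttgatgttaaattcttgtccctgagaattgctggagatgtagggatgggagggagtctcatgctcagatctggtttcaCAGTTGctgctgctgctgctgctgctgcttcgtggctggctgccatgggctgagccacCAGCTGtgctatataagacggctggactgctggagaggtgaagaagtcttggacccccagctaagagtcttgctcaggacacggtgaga

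The Tnmd window held 0 E-boxes, the Thbs4 window 2 and the Cilp window 3. Among 32851 promoters of the same length, 72.3% held at least 1, 39.6% at least 2 and 17.6% at least 3. Position 0 is the annotated start: the Cilp motifs began at -242 (CACTTG), -97 (CAGTTG) and -39 (CAGCTG), and the Thbs4 motifs at -115 (CAAATG) and 43 (CACCTG). The windows also differed in base composition. The Thbs4 window was 72.0% G and C with 24 CpG, the Cilp window 55.7% with 4 and the Tnmd window 40.0% with 4, where the median promoter had 52.7% and 7 CpG. These are matches of letters only, and the 3 promoters share neither an E-box count nor a base composition.

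The libraries held between 21882092 and 71488701 estimated fragments. Stc1 itself had 2245, 291 and 368 fragments in wild-type replicates 1 to 3 and 6, 0 and 0 in knockout replicates 1 to 3. Fibroblast markers, 8 of 8 detected, summed to between 10872 and 28114 CPM (counts scaled to a common effective library size) in wild-type and between 5616 and 9148 CPM in knockout libraries. In wild-type replicate 2, the highest, most of the sum came from the collagen genes Col1a1 (11994 CPM) and Col1a2 (10003 CPM). Both are also in the tendon and ligament matrix list used below. Dcn, another of the 8, was lowest in that library, at 216 CPM, so the sum does not describe every marker. Macrophage markers stood apart in wild-type replicate 3, at 10828 CPM against 400.0 to 1428 CPM in the other libraries. Every pair of libraries differed beyond sampling noise, by a chi-square per degree of freedom of at least 48.9. That lowest value was between wild-type replicate 1 and knockout replicate 2. Pairs of wild-type libraries stood at 473.8 to 833.7 and pairs of knockout libraries at 95.2 to 160.8. These values also depend on depth.

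The 6 genes lie on 6 chromosomes of mm10. The files place Scx on the plus strand of chromosome 15 from 76457438 to 76459468, Mkx on the minus strand of chromosome 18 from 6910459 to 7004726, and Tnmd on the plus strand of chromosome X from 133850980 to 133865577. Thbs4 is on the minus strand of chromosome 13 from 92751590 to 92794818, Comp on the plus strand of chromosome 8 from 70373544 to 70382065, and Cilp on the plus strand of chromosome 9 from 65265180 to 65280605. All 6 are annotated as protein-coding in GENCODE M21, and the deposited counts are per locus. The Mkx locus also carries the name Gm2350, and the genes cannot be told apart there. Scx lies inside the span of Bop1 on the opposite strand. The library kit keeps strand, but none of the sources used here says whether counting used it, so reads of Bop1 in the Scx locus cannot be told apart from Scx. Bop1 stood between 75.2 and 108 CPM in all 6 libraries, and at 80.9 CPM in knockout replicate 3, the library with the most Scx.

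The genes fell into separate patterns over the libraries. Tnmd, Thbs4, Comp and Cilp were each higher in wild-type replicates 2 and 3 than in every other library. Elsewhere, including wild-type replicate 1, they stood at 0.566 CPM or less. Cilp reached only 0.683 CPM in wild-type replicate 3. Scx was expressed in every library and overlapped between genotypes, and Mkx was lowest in the 2 libraries where those 4 genes were highest. In bulk RNA, fewer cells of a type and less RNA per cell cannot be told apart, and this holds for every value given here.

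**Figure D1:**
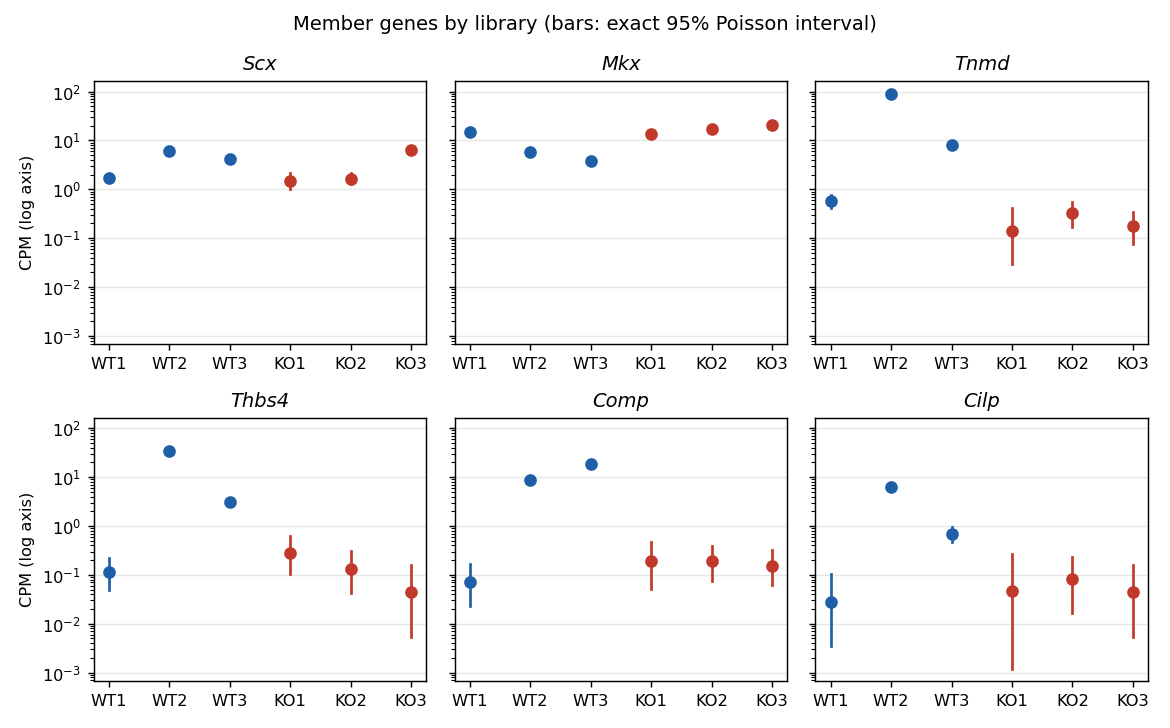
CPM of the 6 genes on a log axis in each library, wild type (WT, blue) and Stc1 knockout (KO, red), with exact 95% Poisson intervals that cover counting error only. Tnmd, Thbs4, Comp and Cilp are each higher in WT2 and WT3 than in every other library, whereas Scx and Mkx stay at 1.5 CPM or more in all 6 libraries.

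Among the transcription factors, Scx had 120, 260 and 203 fragments in wild-type replicates 1 to 3 and 32, 62 and 291 in knockout replicates 1 to 3, or 1.70, 6.09 and 4.20 CPM against 1.5, 1.66 and 6.46 CPM. The highest library, knockout replicate 3, and the lowest, knockout replicate 1, were both knockouts, so the groups overlapped fully. The means were 4.0 ± 2.2 CPM in wild-type and 3.21 ± 2.81 CPM in knockout cells (SD, n = 3 each), and the fit gave a log2 difference, knockout minus wild type, of -0.31 (standard error 0.75). Without knockout replicate 3 that value was -1.33. On the FPKM scale, which allows comparison between genes, Scx ran from 1.20 in knockout replicate 1 to 5.30 in knockout replicate 3.

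Mkx had 1066, 250 and 187 fragments in wild-type and 289, 627 and 919 in knockout libraries, or 15.1, 5.86 and 3.87 CPM against 13.6, 16.8 and 20.4 CPM. Wild-type replicate 1 lay among the knockout libraries, above knockout replicate 1, and wild-type replicates 2 and 3 lay below all others. The means were 8.27 ± 5.99 CPM in wild-type and 16.9 ± 3.41 CPM in knockout cells (SD, n = 3 each), and the fitted log2 difference was 1.03 (standard error 0.53), or 1.8 without wild-type replicate 1. The ratio of Mkx to Scx in FPKM was 0.313 and 0.312 in wild-type replicates 2 and 3. It was 3.34 in wild-type replicate 1, 3.0 and 3.73 in knockout replicates 1 and 2, and 1.07 in knockout replicate 3. As point values, the ratio was thus below 1 in wild-type replicates 2 and 3 and above 1 in the other 4 libraries, whatever their genotype. In knockout replicate 3 it was close to 1. The Mkx values are those of a locus that also carries the name Gm2350.

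Tnmd, the marker of maturing tendon cells, had 40, 3861 and 381 fragments in wild-type and 3, 12 and 8 in knockout libraries. These correspond to 0.566, 90.4 and 7.88 CPM against 0.141, 0.322 and 0.177 CPM. It was the one gene of the 6 whose groups did not overlap, and the gap between wild-type replicate 1 and knockout replicate 2 was small: a ratio of 1.76 with an exact 95% interval of 0.905 to 3.68 from counting error alone. Of all wild-type fragments, 90.2% were in replicate 2. The means were 33.0 ± 49.9 CPM and 0.213 ± 0.0956 CPM (SD, n = 3 each), with the wild-type SD above the wild-type mean. The fitted log2 difference was -7.22 (standard error 1.99), and -4.24 without wild-type replicate 2. Wild-type replicate 3 stood at 36.9 times the knockout mean and wild-type replicate 1 at 2.65 times.

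Thbs4 had 8, 1453 and 151 fragments in wild-type and 6, 5 and 2 in knockout libraries, or 0.113, 34.0 and 3.12 CPM against 0.282, 0.134 and 0.0444 CPM. At 2 to 8 fragments, wild-type replicate 1 and the knockouts cannot be ordered. The means were 12.4 ± 18.8 CPM and 0.153 ± 0.12 CPM (SD, n = 3 each), and the fitted log2 difference was -6.44 (standard error 2.11), or -3.46 without wild-type replicate 2, the source of 90.1% of the wild-type fragments. The order of the wild-type libraries was that of Tnmd.

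Comp had 5, 365 and 911 fragments in wild-type and 4, 7 and 7 in knockout libraries, or 0.0708, 8.55 and 18.9 CPM against 0.188, 0.188 and 0.155 CPM. Unlike Tnmd, Thbs4 and Cilp, it peaked in wild-type replicate 3. The means were 9.16 ± 9.41 CPM and 0.177 ± 0.0188 CPM (SD, n = 3 each). Cilp had 2, 263 and 33 fragments in wild-type and 1, 3 and 2 in knockout libraries, or 0.0283, 6.16 and 0.683 CPM against 0.047, 0.0805 and 0.0444 CPM. For both genes, counts of 1 to 7 fragments do not order wild-type replicate 1 and the knockouts. The means of Cilp were 2.29 ± 3.37 CPM and 0.0573 ± 0.0201 CPM (SD, n = 3 each). Neither Comp nor Cilp passed the filter on low counts, which asks for 3 libraries above a minimum, because each reached it in wild-type replicates 2 and 3 only. They have no fitted value in the main fit.

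Of the 6 genes, 4 therefore entered the test, Scx, Mkx, Tnmd and Thbs4. Tnmd reached the minimum of the filter in all 3 wild-type libraries and knockout replicate 2, and Thbs4 in wild-type replicates 2 and 3 and knockout replicate 1. edgeR's quasi-likelihood test with Benjamini-Hochberg adjustment called 0 of these 4 at an adjusted p under 0.05, where it called 0.0% of all 15673 genes tested, with 2 of the 4 at an unadjusted p under 0.05 against 3.87% of all genes. limma-voom also called 0. DESeq2 called 3 of the 6 lower in knockout cells, Tnmd, Thbs4 and Comp, where it called 0.168% of 19059 genes lower. The authors' deposited table lists 5 of the 6 genes, and at a q under 0.05 it calls 1 of them, Tnmd, lower in knockout cells, against 0.136% of the 8799 genes it tested. In the authors' deposited table the mean FPKM of Tnmd is 21.7 in wild-type and 0.141 in knockout cells. Since the genes were chosen from this contrast, these counts only describe them. Of the 4 tested genes 1, Tnmd, had the 3 knockout libraries below all wild-type libraries, as did 5.44% of all tested genes.

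The differences among the wild-type libraries were far beyond counting error. Wild-type replicate 2 exceeded wild-type replicate 1 by a factor of 160 for Tnmd (exact 95% interval 117 to 224), 300.0 for Thbs4 (152 to 697), 121 for Comp (51.3 to 374) and 218 for Cilp (59.6 to 1806). The factor for Scx was 3.58 (2.88 to 4.49), and Mkx went the other way at 0.388 (0.337 to 0.446). On log2(CPM + 0.5), the Tnmd difference was 6.41, rank 7 from the top among 15673 tested genes, and the Thbs4 difference 5.82, rank 13, while Scx ranked 664 and Mkx 14687. The wild-type mean, for comparison, was 154 times the knockout mean for Tnmd, 81.0 times for Thbs4, 51.7 times for Comp and 40.0 times for Cilp. As point values, the ratio between wild-type replicates 2 and 1 was larger than the ratio between the genotype means for each of these 4 genes. For Tnmd and Comp the counting interval of the first ratio included the second. Wild-type replicates 1 and 2 also enter the wild-type mean, so these ratios are not independent.

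**Figure D2:**
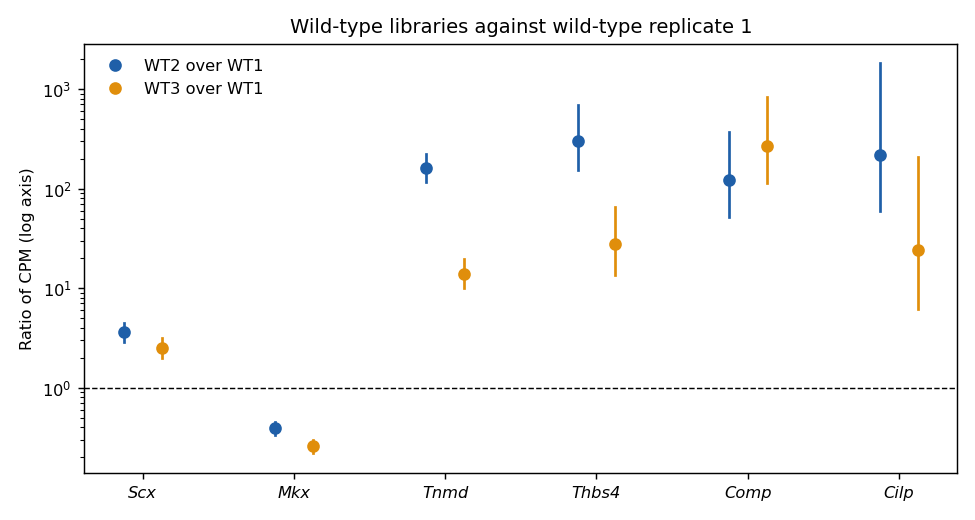
Ratio of CPM in wild-type replicates 2 (blue) and 3 (orange) to wild-type replicate 1, on a log axis, with exact 95% intervals for counting error; the dashed line is a ratio of 1. Tnmd, Thbs4 and Cilp are highest in WT2, Comp is highest in WT3, and Mkx lies below 1 in both.

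Wild-type replicates 2 and 3 also differed from each other, and not in 1 direction. Wild-type replicate 2 exceeded replicate 3 by 11.5 times for Tnmd (10.3 to 12.8), 10.9 times for Thbs4 (9.21 to 13.0) and 9.02 times for Cilp (6.27 to 13.4), intervals that overlap. For Comp the ratio was 0.453 (0.401 to 0.513). Per length, Tnmd was the most abundant of the 6 in wild-type replicate 2, at 59.6 FPKM against 8.83 for Thbs4, 4.91 for Scx, 3.01 for Comp, 1.54 for Mkx and 1.22 for Cilp. In wild-type replicate 3 Comp led at 6.62 FPKM, followed by Tnmd at 5.23 and Scx at 3.40. The ratio of Tnmd to Scx in FPKM was 12.2 and 1.54 in these libraries, 0.273 in wild-type replicate 1 and 0.0225 to 0.158 in the knockouts. In knockout replicate 3 that ratio was 0.0225 although Scx was at its highest level there, so a high Scx level did not come with Tnmd in every library.

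Of all 6 genes, 4 had both wild-type replicates 2 and 3 above every other library, and of the 4 that were tested 2 did, against 16.8% of all genes tested. Mkx had both below every other library, as did 18.4% of all genes tested. The same division of libraries was thus found in many genes outside tendon.

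Markers of other cell types moved with some of these libraries, and their part in the results was not tested. The 11 macrophage markers measured of 12 listed summed to 400.0, 1428 and 10828 CPM in wild-type replicates 1 to 3 and to 1264, 479 and 522 CPM in knockout replicates 1 to 3, and all 11 reached at least 1 CPM in some library. Skeletal muscle markers, 10 of 11 measured, summed to 24.1, 99.8 and 82.9 CPM in wild-type and to 19.2, 12.2 and 34.4 CPM in knockout libraries. Of these 10, 8 stayed under 1 CPM in every library, among them the muscle regulators Myod1 and Myog, and Myf5 and Myf6 were at 0. The sums came mostly from Des, which encodes the intermediate filament protein desmin, at 23.7, 98.3 and 82.4 CPM in wild-type and 18.8, 11.8 and 26.4 CPM in knockout libraries. Pax7, a factor of muscle progenitors, stood at 7.81 CPM in knockout replicate 3 and at 0.134 CPM or less elsewhere. Adipocyte markers summed to 1350 CPM in wild-type replicate 3 and to 33.5 to 111 CPM elsewhere, and 3 of 7, Adipoq, Plin1 and Cfd, stayed under 1 CPM in every library. The lipoprotein lipase gene Lpl made up most of the sum in wild-type replicate 3, at 1161 CPM there and 58.2 CPM or less elsewhere. Cebpa, Fabp4 and Pparg were also highest in wild-type replicate 3, at 90.7, 78.3 and 19.3 CPM. Endothelial markers ran from 11.0 to 74.7 CPM, neural markers from 56.0 to 139 CPM and epithelial markers from 1.57 to 11.3 CPM.

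**Figure D3:**
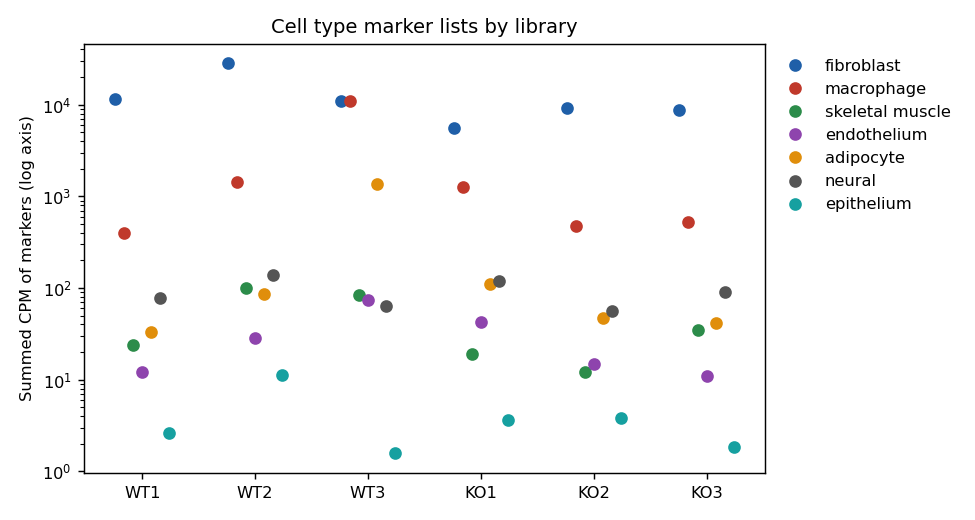
Summed CPM of the marker lists of 7 cell types in each library, on a log axis; points are shifted sideways to keep lists apart. The macrophage and adipocyte sums peak in WT3, and the fibroblast sum in WT2, where most of it comes from Col1a1 and Col1a2.

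Other genes of tendon were taken from lists written for this work. The lists were chosen with earlier results of these data known, so their values are a description and no independent support. In the list of tendon and ligament matrix genes, the median log2 fold change was -1.55, against -0.05 over all genes tested. The fit gave a negative value for 20 of 23 tested genes of the list, against 8712 of all 15673 genes tested. edgeR called 0 of the 23, with 7 of them at an unadjusted p under 0.05 against 3.87% of all genes tested. limma-voom called 0. DESeq2 called 3, Fmod, Aspn and Abi3bp, where it called 0.168% of 19059 genes lower in knockout cells. Aspn and Abi3bp were highest in wild-type replicate 2, at 173 and 57.0 CPM. Fibromodulin (Fmod), a collagen-binding proteoglycan, stood at 5.28, 126 and 17.7 CPM in wild-type and at 3.38, 1.85 and 2.48 CPM in knockout libraries, a fitted log2 difference of -4.28 (standard error 1.23). Its order of wild-type libraries was that of Tnmd. Decorin (Dcn), a related proteoglycan with a positive fitted value, stood at 475, 216 and 797 CPM against 1459, 1395 and 430.0 CPM (log2 fold change 1.14, standard error 0.64). Tenascin-C (Tnc), a matrix protein of developing tendon, stood at 5143 ± 3397 CPM in wild-type and 5578 ± 3795 CPM in knockout cells, and biglycan (Bgn), another small proteoglycan, at 4144 ± 1526 against 3435 ± 476 CPM (SD, n = 3 each). The list was highest in wild-type replicate 2 for 14 of 23 genes, or 60.9%, where 27.3% of all genes tested were highest there. For 8 of the 23 genes the 3 knockout libraries were the lowest of the 6, against 5.44% of all genes tested. Without wild-type replicate 2 the median of the list was -0.59.

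The list of tendon regulators and signals had no common direction. Of 15 tested genes, 7 had a positive and 8 a negative log2 fold change (median -0.13). edgeR called 0 (2 at an unadjusted p under 0.05, against 3.87% of all genes tested), limma-voom 0 and DESeq2 0. Egr1, a zinc finger factor that promotes tendon collagen genes, stood at 289, 105 and 135 CPM in wild-type and at 219, 377 and 196 CPM in knockout libraries. It was lowest in wild-type replicates 2 and 3, as Mkx was. Egr2, a relative of Egr1, stood at 16.7 ± 6.38 CPM in wild-type and 9.77 ± 3.70 CPM in knockout cells, and Six2, a homeodomain factor, at 2.19 ± 1.13 against 5.67 ± 3.31 CPM (SD, n = 3 each). Leaving out wild-type replicate 2 gave a list median of 0.33 and leaving out wild-type replicate 1 gave -0.51, so its sign depended on the libraries used.

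Genes of cartilage were mostly at low levels. Of 20 listed genes 12 passed the filter on low counts, 5 with a positive and 7 with a negative log2 fold change (median -0.28), and edgeR called 0 (0 at an unadjusted p under 0.05), limma-voom 0 and DESeq2 0. Sox9, the transcription factor that starts cartilage formation, stood at 20.7, 17.3 and 8.61 CPM in wild-type and at 10.4, 12.8 and 13.2 CPM in knockout libraries, with overlapping groups. Its partner Sox5 stood at 4.29 ± 1.03 against 5.96 ± 1.70 CPM, Sox6 at 1.56 ± 1.41 against 0.849 ± 0.325 CPM, and the collagen IX chain gene Col9a2 at 0.506 ± 0.557 against 0.299 ± 0.106 CPM (SD, n = 3 each). Leaving out wild-type replicate 2 moved the list median to 0.38, wild-type replicate 3 to 0.17 and knockout replicate 1 to -0.05.

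Close relatives of the 6 genes had no common direction. Of 13 tested relatives, 8 had a positive and 5 a negative log2 fold change (median 0.10), and edgeR called 0 (0 at an unadjusted p under 0.05), limma-voom 0 and DESeq2 0. The median was 0.62 without wild-type replicate 1. Lect1, which encodes chondromodulin and is the nearest relative of Tnmd, was at 0 in 5 of 6 libraries. Of the other BRICHOS genes, Itm2a stood at 22.6, 161 and 73.2 CPM in wild-type and at 19.3, 20.3 and 45.5 CPM in knockout libraries, so it too was highest in wild-type replicates 2 and 3. Itm2b stood at 927 ± 552 against 834 ± 185 CPM and Itm2c at 373 ± 144 against 508 ± 76.3 CPM (SD, n = 3 each). Twist1, a basic helix-loop-helix factor of mesenchyme as Scx is, stood at 28.5 ± 13.9 against 30.5 ± 8.11 CPM (SD, n = 3 each). Thbs1 could not be used, since the deposited wild-type values carry a mark in place of a measurement.

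**Figure D4:**
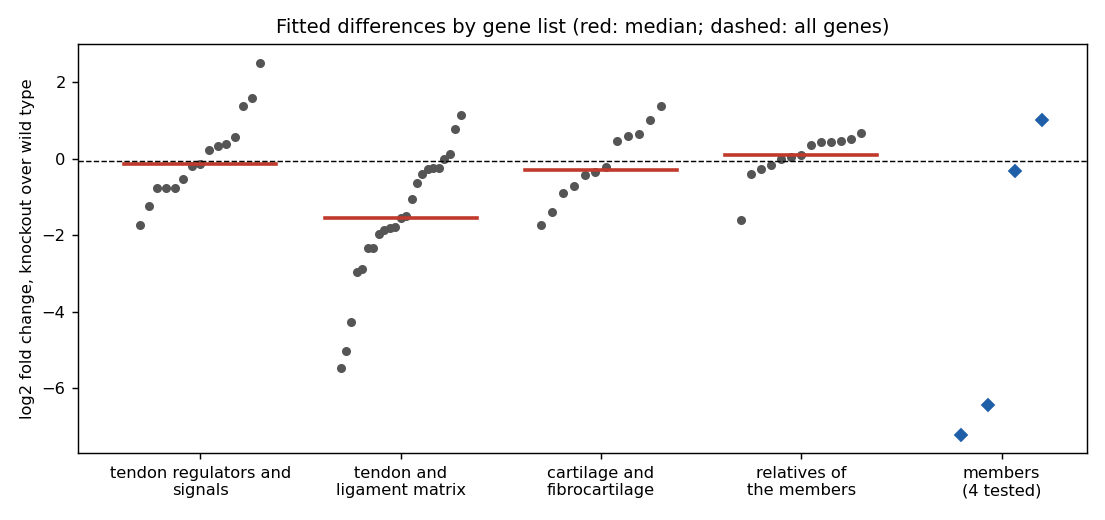
Fitted log2 fold change (knockout against wild type) for each tested gene of 4 lists (grey points, sorted within a list), with list medians in red and the median of all genes, -0.05, dashed; blue diamonds are the 4 tested members, chosen from this contrast. The matrix list lies mostly below 0, with a median of -1.55, and the other lists straddle 0.

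Genes whose pattern over the 6 libraries was most like each tested member were sought by Pearson's r of log2(CPM + 0.5), among genes whose average log2 CPM was 2 or more. The genes named are the top 3 of 11727 or 11728 compared over only 6 libraries, so each r is a description only. The 6 libraries share 1 scaling, and Tnmd and Thbs4 both have their highest value in wild-type replicate 2. Tnmd was most like Zbtb2 (r = 0.999), Med26 (0.999) and N4bp2 (0.997), Thbs4 most like Tbpl1 (0.998), Zfp606 (0.997) and Arsj (0.996). All 6 were highest in wild-type replicate 2 and next in wild-type replicate 3. Zbtb2 ran from 13.6 to 22.4 CPM, a much smaller range than that of Tnmd, and Arsj from 2.22 to 29.5 CPM. Scx was most like Wnt16 (0.994), Psmb7 (0.99) and Pdhx (0.984). Psmb7 ran only from 112 to 131 CPM and Pdhx from 19.9 to 24.0 CPM. Wnt16, a secreted Wnt ligand, stood at 1.19, 9.06 and 6.83 CPM in wild-type and at 0.986, 1.02 and 11.1 CPM in knockout libraries. Mkx was most like Ntmt1 (0.996), Bri3bp (0.996) and Msi2 (0.995), which were lowest in wild-type replicate 3, as Mkx was.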

How the data were processed

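The submitters' processing notes list mm10, CASAVA 1.8.2, Cuffdiff 2.0.1 and TopHat2 2.0.6, without saying which did what. Per the file headers, the authors deposited for each library and locus an estimated count of fragments and an FPKM, which Cuffdiff scaled across libraries. The authors' deposited table of the comparison holds 1 mean FPKM for each genotype, a p-value, a q-value and a log2 fold change, treated here as a score because infinite values carry a placeholder.

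Of 39495 loci, 2667 without a name (0.507% to 0.555% of each library's fragments) and 16 marked HIDATA in a library, where the value is 0 and no measurement, were left out. Loci marked FAIL in a library were kept, among them Col1a2 and some other listed genes. The members were marked OK in every library. Estimated counts (19.7% of those above 0 not whole within 0.01) were rounded. The test was the quasi-likelihood F test of edgeR 4.0.16 (R 4.3.3) after filterByExpr and TMM scaling, with a robust glmQLFit, at a Benjamini-Hochberg adjusted p under 0.05. Standard errors are the log2 fold change over the root of F. CPM use TMM effective library sizes. Intervals are exact, at 95%, and cover counting error only.

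Other settings tried were limma 3.58.1 (voom on counts, or log2 of FPKM plus 1 or 0.1), DESeq2 1.42.0, other scalings and filters, a non-robust fit, FPKM or library totals for levels, and leaving out each library. The members and lists were chosen with earlier results of these data known. Named genes were the members, the first 4 tested genes of each list, and the 3 genes most like each tested member. Lect1, Thbs1, Bop1, Col1a1, Col1a2 and the genes called by DESeq2 were added after values were seen. For cell type lists the rule gave only sums and genes at 0. Muscle and adipocyte markers named with values or as under 1 CPM fall outside it. A listed gene that this rule names is not reported here, though the counts and median of its list include it. Positions come from the files, gene types from GENCODE M21. The fit was tested on simulated data. Some listed marker genes were not analysed here.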

Additional observations from a re-analysis of the deposited data

How the results depend on the processing

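No paired analysis was possible because the labels give no replicate numbers that the genotypes share. The titles hold a code for each library, with no meaning given and none that recurs between genotypes, and the numbers used here follow accession order. The count of genes called, 0 with edgeR, was 61 with DESeq2 and 1 with limma on log2(FPKM + 0.1), and 0 with every library left out in turn. DESeq2 called 3 of the 6 genes and 3 of the tendon and ligament matrix list. All other settings called 0 of either, and the cause was not tested. Several of them, limma-voom included, fitted only 4 of the 6, without Comp and Cilp. The filter of at least 1 CPM in 3 libraries fitted 2, without Tnmd and Thbs4 as well. A gene that was not fitted could not be called.

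The log2 fold change of Tnmd was -4.71 with limma-voom, -2.81 with limma on log2(FPKM + 1) and -4.48 on log2(FPKM + 0.1), and that of Thbs4 -3.92, -1.29 and -2.58. The cause was not tested. Leaving out 1 library in turn gave -7.80 to -4.24 for Tnmd, -7.11 to -3.46 for Thbs4, -1.33 to 0.15 for Scx and 0.69 to 1.8 for Mkx. The list medians ran from -0.51 to 0.33 for regulators, -1.93 to -0.59 for matrix, -0.45 to 0.38 for cartilage and -0.05 to 0.62 for relatives. The regulator median was 0.29 with limma-voom, and the cartilage median 0.07 with at least 1 CPM in 3 libraries and -0.06 with limma on log2(FPKM + 1). Ratios between wild-type replicates 2 and 1 stayed within their counting intervals on the FPKM scale and without TMM factors. At 1 to 8 fragments, Thbs4, Comp and Cilp in wild-type replicate 1 and the knockouts cannot be ordered at this depth.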

Other observations

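Some genes outside the rule for named genes were singled out after their values were seen. The cartilage matrix genes Col2a1, the main collagen of cartilage, and Acan, its large proteoglycan, did not pass the filter on low counts, but Col2a1 stood at 8.83 and 2.01 CPM in wild-type replicates 2 and 3 and between 0.107 and 0.222 CPM in the other 4 libraries. Acan stood at 3.14 CPM in wild-type replicate 2 and at 0.0991 CPM or less elsewhere. Other cartilage genes were lowest in these libraries: Matn4 stood at 0.726 and 0.538 CPM in wild-type replicates 2 and 3 and at 2.11 to 4.04 CPM elsewhere, and Snorc at 0.0937 and 0.372 CPM against 0.939 to 2.55 CPM. Meox1, a homeodomain factor of somites, stood at 13.5 CPM in wild-type replicate 2 and at 0.0828 to 2.53 CPM in the other libraries.

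Some relatives of Mkx and Scx, Irx1, Irx2 and Twist2, were highest in wild-type replicate 1 and knockout replicate 2. Irx1 stood at 112 CPM in wild-type replicate 1 and 80.3 CPM in knockout replicate 2 and between 8.5 and 23.9 CPM in the other libraries, and Irx2 at 51.2 and 48.0 CPM against 6.10 to 12.7 CPM. Twist2, a basic helix-loop-helix factor of dermal mesenchyme, stood at 339 CPM in wild-type replicate 1 and 318 CPM in knockout replicate 2, at 185 CPM in knockout replicate 1, and between 24.1 and 75.1 CPM in the others. The other Irx genes listed, Irx3 and Irx5, were highest in knockout replicate 3, at 14.2 and 8.72 CPM. Meis1 ran from 16.1 to 33.5 CPM and was highest in knockout replicate 1, and Twist1 was highest in wild-type replicate 2, at 43.7 CPM. These values were not tested.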
